A study of Mus musculus with 6 samples.

Results

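The genes of autophagy, of the lysosome and of the vacuolar ATPase (V-ATPase) were examined in haematopoietic stem cells (HSCs) of old and young mice. Members were taken by name. They comprised the Atg genes, the Map1lc3 and Gabarap genes, the Atp6v subunit genes, Lamp1, Lamp2, Mcoln1, 10 cathepsins, and Becn1, Ulk1, Ulk2, Sqstm1, Tfeb, Tfe3, Wipi1 and Wipi2. This gave 62 of the 16312 genes in the count table, of which 60 had enough reads to be tested. Another 8 annotated genes with matching names, pseudogenes and tissue-restricted subunits among them, were not analysed here.

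HSCs were sorted by flow cytometry from bone marrow of male C57BL/6N mice, 3 aged 22 months (old) and 3 aged 8 to 12 weeks (young). Both groups served as B6 controls in a parabiosis project, in which animals are surgically joined, and no other treatment or allele was named. The sort markers and the number of cells were not given in the labels. RNA was extracted and made into libraries with kits for very small inputs, and sequenced from a single end. The totals were 12494557 to 23583985 counts in old and 21386745 to 30931680 counts in young libraries. Levels are CPM, counts divided by the scaled library size and multiplied by 1000000. Fold changes are old over young. All 13 HSC markers looked for were measured and tested. Procr (1.94-fold) and Slamf1 (2.77-fold) rose and Cd34 fell (0.462-fold). Kit stood at 829, 879 and 918 CPM in the old libraries and 826, 888 and 930 CPM in the young ones. The 3 old libraries lay above the 3 young ones for 6 of the 13 markers (46.2%, against 11.6% of all genes). They lay below for 1 (7.69%, against 10.8%). The part of such differences between the sorted cells in the member values was not tested. The library called young replicate 2 carries different numbers in 2 of its labels, and counts without it are given below.

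Autophagy encloses cell contents in a double membrane, the autophagosome, which fuses with the lysosome so that its cargo is broken down by acid hydrolases such as cathepsins. The V-ATPase pumps protons into the lysosome, and small proteins of the Atg8 family (LC3 and GABARAP) are joined to lipid on the growing membrane. In HSCs, autophagy is known for clearing mitochondria and for helping the cells keep a quiescent state.

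In the sorted HSC samples 3 members passed the test with a higher level in old mice, each by about 1.5-fold. They were Gabarapl1, an Atg8 family member, Ctsc, the lysosomal protease cathepsin C, and Lamp2, a major protein of the lysosomal membrane. None of them was called when any single old library was left out. The part of other cell types in these values was not tested. No V-ATPase gene passed the test. No kinase, scaffold or conjugating enzyme that builds the autophagosome passed it either. Cathepsin S (Ctss), a protease typical of macrophages and antigen-presenting cells, was at 0.360 times the young level but missed the threshold.

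Of the 60 tested members, 3 rose and none fell at an adjusted p of 0.05 in edgeR's quasi-likelihood test (5%, against 3.99% of all 14288 genes tested that were called, 2.45% higher and 1.54% lower). At an unadjusted p of 0.05, 11 members were higher (18.3%, against 8.84% of all genes) and 3 were lower (5%, against 7.63%). The median log2 fold change was 0.15 over the members and −0.02 over all genes tested. A positive value was found for 42 members (70%, against 48.2% of all genes). The 3 old libraries lay above the 3 young ones in CPM for 11 members (18.3%, against 11.6% of all genes) and below them for 3 (5%, against 10.8%), and the groups overlapped for the other 46. The calls depended on single libraries. Without any 1 of the 3 old libraries no member was called, without young replicate 2 or young replicate 3 Gabarapl1 alone was called, and without young replicate 1 Ctsl joined the 3. DESeq2 called 6 of its 62 tested members higher, against 4.25% of all genes, and 1 lower, against 3.22% of all genes.

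**Figure D1:**
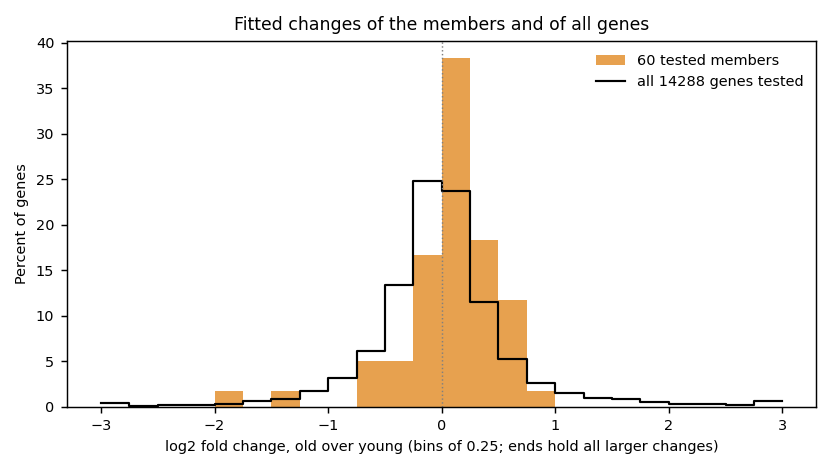
Share of genes (percent, vertical axis) by log2 fold change of old over young (horizontal axis, bins of 0.25) for the 60 tested members (bars) and all 14288 genes tested (line). The bars centre slightly right of zero, with a median of 0.15 against −0.02 for all genes, and the members farthest from zero are Atp6v0d2 and Ctss on the left.

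The Atg8 family was the role of the autophagosome machinery with a called gene. Its members are the small ubiquitin-like proteins that mark the autophagosome and bind cargo receptors. Gabarapl1 stood at 120, 127 and 131 CPM in the old libraries and at 86.6, 81.3 and 79.0 CPM in the young ones. The lowest old library lay well above the highest young one, and the replicates of each group lay close together. Gabarapl1 averaged 126 ± 5.63 CPM in old and 82.3 ± 3.91 CPM in young mice (SD, n = 3 each), a log2 fold change of 0.62 ± 0.12 SE (95% interval 0.35 to 0.88, edgeR adjusted p = 0.0141). The gene (ENSMUSG00000030161.8) lies on chromosome 6 from 129533160 to 129542346 of GRCm38. A transcript on the opposite strand, 1700101I11Rik, shares 28.3% of its exon bases, and no source used here says whether reads were counted by strand.

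The other Atg8 genes did not pass. Map1lc3b, which encodes the widely used autophagosome marker LC3B, stood at 177, 203 and 213 CPM in old and at 152, 161 and 139 CPM in young libraries. The groups did not overlap, but the log2 fold change of 0.39 (95% interval 0.13 to 0.65) had an adjusted p of 0.103 in edgeR and of 0.0376 with DESeq2. Gabarap had 66.4, 98.2 and 86.7 CPM in old and 67.7, 58.9 and 53.2 CPM in young libraries, and old replicate 1 lay within the young range. Gabarapl2 had a log2 value of 0.30 (−0.25 to 0.86). Map1lc3a was the scarce member, at 2.46 ± 0.836 CPM in old and 2.48 ± 0.422 CPM in young mice, so that its interval of −1.21 to 1.21 allows a change of more than 2-fold either way. Summed over the 5 genes, the family took 386, 461 and 454 CPM in the old and 329, 325 and 290 CPM in the young libraries, without overlap.

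Lamp2 was the called gene of the lysosomal membrane. Its product lines the inner face of that membrane, and one isoform is the receptor of chaperone-mediated autophagy, though the deposited counts are per gene and do not separate isoforms. Lamp2 stood at 447, 444 and 461 CPM in the old libraries and at 368, 294 and 248 CPM in the young ones. The old libraries were nearly level, and the spread lay among the young, of which young replicate 1 was nearest to the old. The means were 450.4 ± 8.89 CPM in old and 303 ± 60.6 CPM in young mice (SD, n = 3 each), a log2 fold change of 0.57 ± 0.13 SE (0.28 to 0.87, edgeR adjusted p = 0.0367). The gene (ENSMUSG00000016534.15) lies on chromosome X from 38401357 to 38456454. Lamp1, the other main membrane glycoprotein, had 267, 278 and 315 CPM in old and 256, 247 and 219.9 CPM in young libraries. These groups did not overlap either, yet the log2 value was 0.25 (0.01 to 0.50, adjusted p = 0.289). Mcoln1, the calcium channel of the lysosome, had 20.96, 22.5 and 22.9 CPM in old and 17.7, 17.9 and 12.6 CPM in young libraries (log2 value 0.46, −0.05 to 0.97, adjusted p = 0.358).

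Among the 10 cathepsins Ctsc rose, none fell, and the fitted values of the others lay on both sides of zero. Cathepsin C trims the ends of the granule serine proteases and so activates them. Ctsc stood at 113, 125 and 136 CPM in the old libraries and at 90.1, 81.4 and 74.4 CPM in the young ones. No young library reached the lowest old one. The means were 125 ± 11.6 CPM in old and 82.0 ± 7.85 CPM in young mice (SD, n = 3 each), a log2 fold change of 0.60 ± 0.13 SE (0.31 to 0.90, edgeR adjusted p = 0.0277). The gene (ENSMUSG00000030560.17) lies on chromosome 7 from 88278085 to 88310888.

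Some cathepsins that did not pass had values of a similar size. Ctsb, the cysteine protease cathepsin B, had 89.0, 104 and 144 CPM in old and 80.3, 67.9 and 74.9 CPM in young libraries, with old replicate 3 far above the other old ones (log2 value 0.60, 0.21 to 0.98, adjusted p = 0.0908). Ctsl, cathepsin L, had 73.6, 71.6 and 80.4 CPM in old and 60.6, 46.8 and 46.9 CPM in young libraries, without overlap (log2 value 0.55, 0.20 to 0.89, adjusted p = 0.0831). The antisense gene Gm47123 shares 26.8% of its exon bases. Both were called with DESeq2. Ctsd, the aspartic protease cathepsin D, was the cathepsin with the highest level per length and had a log2 value of 0.39 (0.05 to 0.73, adjusted p = 0.218). It shares 34.4% of its exon bases with Gm49369 on the same strand, so its count is uncertain. Ctsf, Ctsa and Ctso had log2 values of 0.59, 0.21 and 0.18, and Ctsh one of −0.27.

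Ctss and Ctsz lay below the young libraries in all 3 old ones. Ctss had 55, 33 and 59 counts in the old and 134, 198 and 246 counts in the young libraries, or 2.32, 2.77 and 2.70 CPM in old and 6.35, 7.76 and 7.52 CPM in young. Both groups were tight and far apart, and the log2 fold change was −1.47 ± 0.39 SE (−2.33 to −0.62, edgeR adjusted p = 0.0612). With DESeq2 the adjusted p was 0.00579, and with limma-voom and quality weights it was 0.0292. Ctsz, cathepsin Z, had 15.3, 9.14 and 14.3 CPM in old and 21.7, 16.3 and 22.3 CPM in young libraries (log2 value −0.63, −1.23 to −0.04, adjusted p = 0.271). Most markers of macrophages were lower in the same libraries, while Lyz2 was not (log2 value 0.33, adjusted p = 0.253). Of 16 tested macrophage markers 8 fell (50%, against 1.54% of all genes) and none rose (against 2.45%). The summed level of all 18 measured ones was 221 to 247 CPM in old and 241 to 288 CPM in young mice. Without Lyz2, left out after its values were seen because it made up most of that sum, the range was 46.6 to 50.4 CPM in old and 110 to 126 CPM in young libraries. Of this list, Adgre1, C1qb, Cd5l, Fcna and Timd4 had no count in any old library. Their young counts were small too, such as 0, 8 and 9 for Timd4 and 54, 64 and 51 for Fcna. Mertk, Spic and Cd163 were present in the old libraries and overlapped between the groups. Their means were 6.15, 13.2 and 9.96 CPM in old and 6.20, 15.8 and 16.4 CPM in young mice. The part of these cells in the Ctss and Ctsz values was not tested, and in sorted bulk samples fewer cells of a type and less RNA per cell cannot be told apart.

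Markers of other cell types differed between the same libraries. Over all genes tested, 2.45% were called higher and 1.54% lower in old mice. The summed level of 10 megakaryocyte markers was 265 to 341 CPM in old and 104 to 160 CPM in young libraries, with Vwf as the 1 called gene. Vwf alone made this gap, and the other 9 genes summed to 82.2 to 92.6 CPM in old and 80.5 to 107 CPM in young libraries, which overlap. That of the 4 measured T and NK cell markers, led by the called Klrb1c, was 69.4 to 85.7 CPM in old and 16.1 to 23.3 CPM in young libraries. Without Klrb1c the sum lay the other way, at 8.06 to 11.9 CPM in old and 12.2 to 13.7 CPM in young libraries. The 5 measured dendritic cell markers, with Clec9a called, summed to 50.4 to 85.5 CPM in old and 17.2 to 34.5 CPM in young libraries. Without Clec9a these sums overlapped, at 9.58 to 16.3 CPM in old and 6.59 to 13.9 CPM in young libraries. These 3 genes were left out after their values were seen. No gene of these 3 lists was at 0 in a whole group. Erythroid markers summed to 22.2 to 30.1 CPM in old and 70.1 to 264 CPM in young libraries, and 4 of 9 tested fell (44.4%). Neutrophil markers summed to 19.9 to 23.5 CPM in old and 27.0 to 257 CPM in young libraries, and 4 of 6 tested fell (66.7%). Both sums were highest in young replicate 1. B and plasma cell markers summed to 18.4 to 22.1 CPM in old and 20.2 to 22.6 CPM in young libraries, and osteoclast markers to 5.31 to 10.4 CPM in old and 6.27 to 10.8 CPM in young ones, with no gene of either list called. The part of any of these cells in the values of Gabarapl1, Lamp2 and Ctsc was not tested.

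**Figure D2:**
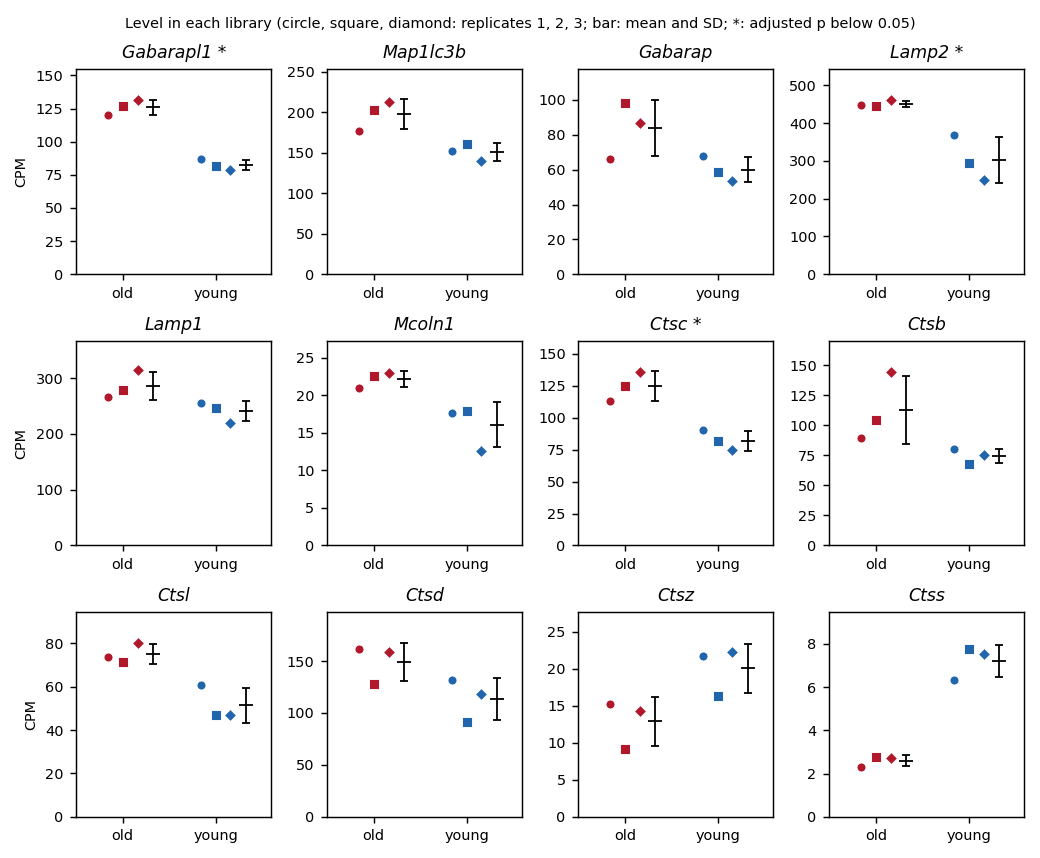
CPM (vertical axes, each from 0) of 12 Atg8, lysosomal membrane and cathepsin genes in the 3 old (left, red) and 3 young (right, blue) libraries, with the mean and SD beside them. Gabarapl1, Lamp2 and Ctsc (starred) passed the test, and Ctss and Ctsz are the genes shown that were lower in all old libraries. The genes were chosen after their values were seen. Those of the same roles left out overlapped between the groups, as did Gabarap and Ctsd.

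The sequence before the start of the 3 risen genes is printed because these are the members that were called. The 250 bases upstream of the RefSeq start (GRCm38.p6), read along the gene's strand, lie at chr6:129532942-129533191 (plus strand) for Gabarapl1, chr7:88277835-88278084 (plus) for Ctsc and chrX:38456461-38456710 (minus) for Lamp2. Capitals mark a FoxO-type motif, ATAAACA or GTAAACA on either strand.
Gabarapl1: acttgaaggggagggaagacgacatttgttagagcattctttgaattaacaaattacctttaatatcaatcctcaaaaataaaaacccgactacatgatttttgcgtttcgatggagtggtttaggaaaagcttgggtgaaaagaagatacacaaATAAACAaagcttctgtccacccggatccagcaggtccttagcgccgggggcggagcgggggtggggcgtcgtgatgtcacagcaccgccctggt
Ctsc: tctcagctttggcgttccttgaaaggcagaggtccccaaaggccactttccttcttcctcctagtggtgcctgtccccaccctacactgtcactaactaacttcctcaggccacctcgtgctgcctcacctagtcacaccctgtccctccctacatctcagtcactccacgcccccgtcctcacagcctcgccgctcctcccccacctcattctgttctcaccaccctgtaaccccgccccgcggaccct
Lamp2: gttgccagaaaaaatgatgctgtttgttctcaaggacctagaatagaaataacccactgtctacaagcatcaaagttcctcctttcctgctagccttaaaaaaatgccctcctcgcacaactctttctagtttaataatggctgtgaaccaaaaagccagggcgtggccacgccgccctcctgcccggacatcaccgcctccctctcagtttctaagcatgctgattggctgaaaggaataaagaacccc
The Gabarapl1 sequence holds the motif, and those of Ctsc and Lamp2 do not. In windows of 300 bases that add 50 bases after the start, 9.01% of 27025 genes had the motif, and 4 of 50 members (Atg4a, Atp6v1b1, Gabarapl1 and Wipi2). None of the 3 printed sequences holds CACGTG, the E-box that Tfeb and Tfe3 bind, or the AP-1 motif TGANTCA, which 8.97% of all genes and 2 members (Atp6v0a1 and Tfe3) had. A match describes letters and is no evidence of binding.

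Tfeb and Tfe3 are the transcription factors best known for switching on lysosomal genes, through the CLEAR motif, whose core TCACGTGA contains the E-box. Neither passed the test. Tfe3 had 26.8, 49.9 and 39.1 CPM in old and 23.3, 26.9 and 26.5 CPM in young libraries, and old replicate 1 overlapped the young (log2 value 0.59, 0.08 to 1.10, adjusted p = 0.223). Tfeb was scarce, at 6.24, 3.02 and 3.94 CPM in old and 8.25, 3.06 and 8.99 CPM in young libraries (log2 value −0.61, −1.67 to 0.45, adjusted p = 0.605). The cargo receptor gene Sqstm1, which encodes p62, stood at 26.6 ± 4.24 CPM in old and 26.7 ± 2.74 CPM in young mice, with an interval of −0.46 to 0.45.

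The CLEAR core was found in the 300-base windows of 7 of the 50 members matched to RefSeq (14%, against 1.12% of 27025 genes), and an E-box in 14 (28%, against 8.09%). The 7 sites are shown because they carry the letters these factors are known to bind, each with 11 bases on either side and the core in capitals.
Atg3: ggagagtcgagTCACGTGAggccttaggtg
Atp6v0d1: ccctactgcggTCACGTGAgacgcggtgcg
Atp6v0e: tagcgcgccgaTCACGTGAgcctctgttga
Atp6v1a: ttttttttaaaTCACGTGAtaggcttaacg
Ctsa: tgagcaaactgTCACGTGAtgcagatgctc
Ctsd: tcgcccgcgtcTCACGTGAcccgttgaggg
Mcoln1: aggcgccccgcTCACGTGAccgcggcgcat
On GRCm38.p6 they lie at chr16:45158746-45158775 (Atg3, plus strand), chr8:105566050-105566079 (Atp6v0d1, minus), chr17:26676387-26676416 (Atp6v0e, plus), chr16:44139373-44139402 (Atp6v1a, minus), chr2:164833749-164833778 (Ctsa, plus), chr7:142387908-142387937 (Ctsd, minus) and chr8:3500462-3500491 (Mcoln1, plus). None of these 7 genes was called. Their log2 fold changes ran from 0.10 for Atp6v0e to 0.46 for Mcoln1, with 0.11 for Atg3, 0.14 for Atp6v0d1, 0.21 for Ctsa, 0.31 for Atp6v1a and 0.39 for Ctsd. The 12 members without a RefSeq window were Atg12, Atg16l1, Atp6v0a2, Atp6v0d2, Atp6v1b2, Atp6v1c1, Atp6v1g1, Atp6v1h, Becn1, Ctsb, Ctsh and Map1lc3a.

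Apart from the Atg8 family, the members that start and extend the autophagosome showed no called change. Ulk1 and Ulk2 encode the kinases that trigger autophagy, and Atg13 and Atg101 their partners. Ulk2, the highest of the 4 per length, had 114, 110.3 and 118 CPM in old and 115, 123 and 110.3 CPM in young libraries, and its log2 interval of −0.28 to 0.23 spans less than 1.5-fold in either direction. Atg13 had 22.3, 37.0 and 20.7 CPM in old and 12.7, 29.8 and 22.9 CPM in young libraries. Atg101, near 2 CPM, did not overlap between the groups, at 2.49, 3.02 and 2.38 CPM in old and 1.75, 1.33 and 0.917 CPM in young libraries (log2 value 0.98, −0.21 to 2.17, adjusted p = 0.423). Becn1, of the lipid kinase complex that follows, averaged 52.5 ± 8.17 CPM in old and 48.4 ± 10.3 CPM in young mice. Atg14, which brings that complex to the membrane, averaged 26.4 ± 3.72 CPM in old and 26.7 ± 5.50 CPM in young mice. Becn1 shares 43.9% of its exon bases with Cntd1 on the opposite strand.

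All 6 genes for lipid transfer (Atg2a and Atg2b), membrane supply (Atg9a and Atg9b) and phosphoinositide binding (Wipi1 and Wipi2) overlapped between the groups, with log2 values from 0.07 to 0.25. Overlap was common, as the old libraries lay above the young ones for 11.6% of all genes and below them for 10.8%. Atg2b, the highest of them per length, had 122, 125 and 143 CPM in old and 105, 122 and 134 CPM in young libraries. Wipi1 had 11.1, 14.3 and 16.2 CPM in old and 10.3, 10.2 and 14.5 CPM in young libraries. Atg9a shares 31.8% of its exon bases with Gm29253 on the same strand, so its count is uncertain.

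The 11 conjugation genes likewise overlapped in every case, as most of all genes tested did. They encode the activating enzyme Atg7, the conjugating enzymes Atg3 and Atg10, the Atg4 proteases, and the Atg12, Atg5 and Atg16 proteins that direct lipid attachment. Atg3, the highest per length, stood at 52.2 ± 9.39 CPM in old and 48.6 ± 2.91 CPM in young mice. The lowest log2 values were those of Atg4d (−0.64, −1.49 to 0.20) and Atg16l2 (−0.43, −0.95 to 0.08). Atg4d had 17.0, 5.96 and 16.5 CPM in old and 16.5, 15.9 and 29.7 CPM in young libraries, with old replicate 2 far below the rest, and it shares 19.3% of its exon bases with Kri1 on the opposite strand. Atg16l2 had 30.5, 22.1 and 32.7 CPM in old and 27.8, 43.5 and 44.1 CPM in young libraries. Over all 60 tested members, 21 had a 95% interval within 1.5-fold in both directions, among them both genes of the Becn1 complex, 5 conjugation genes and 7 V-ATPase genes. The other 39 intervals were not inside that bound.

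**Figure D3:**
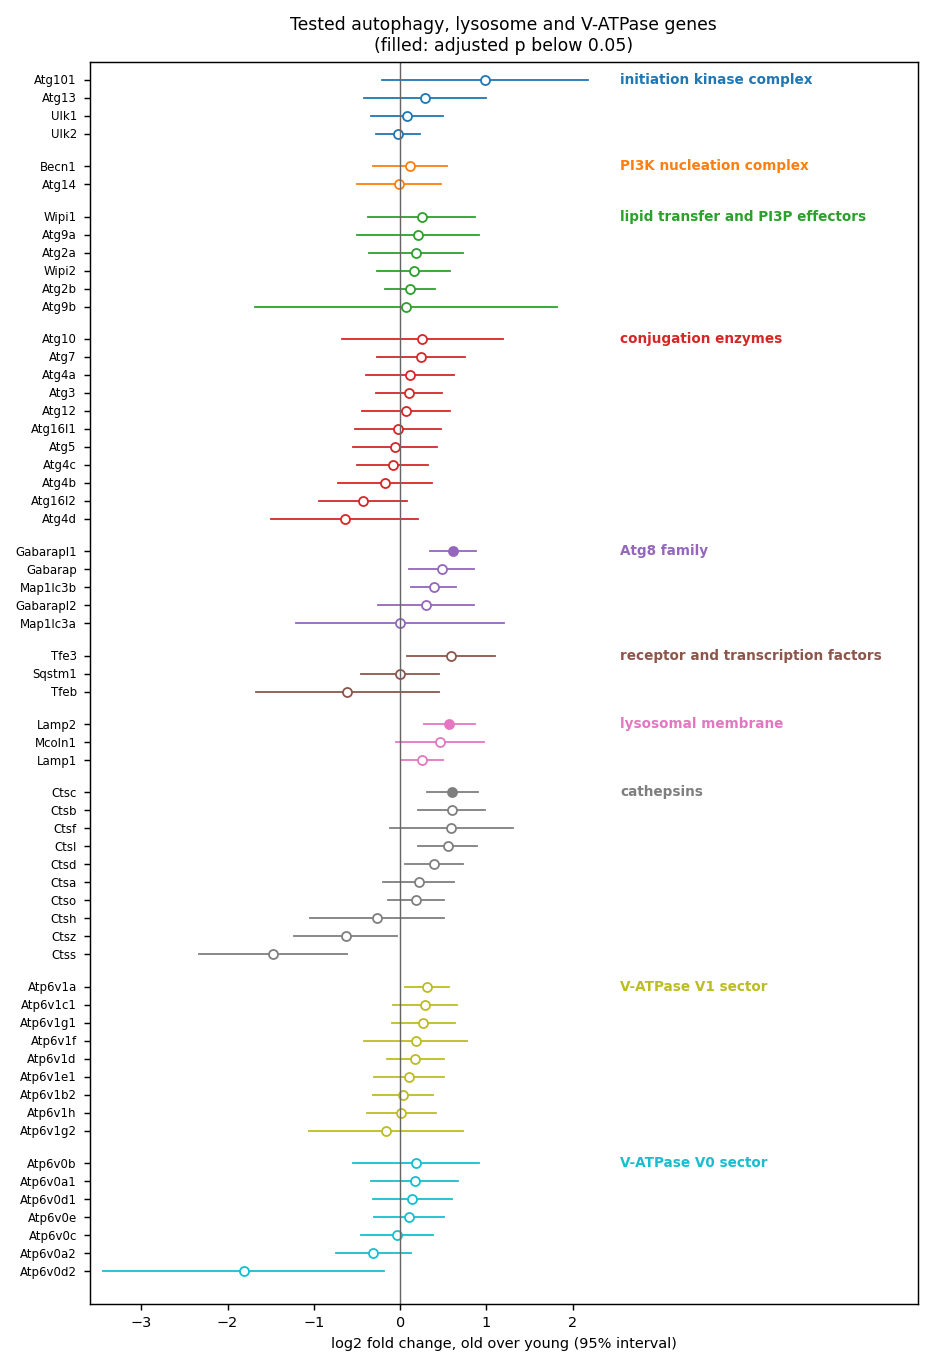
Log2 fold change of old over young (horizontal axis, point) with its 95% interval (line) for the 60 tested members, grouped by role down the page. Filled points, Gabarapl1, Lamp2 and Ctsc, passed an adjusted p of 0.05, and the widest intervals belong to scarce genes such as Atp6v0d2 and Atg9b.

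None of the 16 tested V-ATPase genes was called, 9 of the V1 sector, which splits ATP, and 7 of the V0 sector, which carries protons across the membrane. Atp6v1a, the catalytic subunit, came nearest. It had 142, 156 and 150.1 CPM in old and 128, 124 and 110.4 CPM in young libraries, without overlap (log2 value 0.31, 0.05 to 0.56, adjusted p = 0.204). Atp6v1c1, which links the sectors, had 45.05, 57.0 and 47.9 CPM in old and 42.4, 37.9 and 42.4 CPM in young libraries, also without overlap (log2 value 0.29, −0.08 to 0.66). Atp6v0a2 had the lowest value of the well-expressed subunits, with 43.2, 27.3 and 37.3 CPM in old and 48.4, 43.6 and 42.2 CPM in young libraries (log2 value −0.31, −0.75 to 0.12). Summed over 18 genes, the V-ATPase took 719 ± 23.7 CPM in old and 656 ± 48.1 CPM in young mice (SD, n = 3 each).

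Subunit copies were compared by their level per kilobase of merged exons. That length covers the exons of all annotated isoforms, so these levels, ranks and shares do not account for which isoform was expressed. Atp6v1g1 was the highest, at 45.8 ± 6.43 CPM per kilobase in old and 38.0 ± 2.75 in young mice, followed by Atp6v1a at 24.7 ± 1.16 in old and 20.0 ± 1.53 in young mice. In the V0 sector Atp6v0d1 led, at 18.7 ± 4.19 CPM per kilobase in old and 17.0 ± 1.55 in young mice, close to Atp6v0e at 17.3 ± 1.42 in old and 16.1 ± 4.01 in young mice, a gap within the replicate spread. For the B, d and G subunits the widely expressed copy carried most of the level. Atp6v1b2 held 99.97% ± 0.0448 of the B subunit in old and 99.1% ± 1.10 in young mice. Atp6v0d1 held 99.6% ± 0.246 of the d subunit in old and 98.5% ± 0.537 in young mice, and Atp6v1g1 held 94.2% ± 2.92 of the G subunit in old and 92.3% ± 2.20 in young mice. The a subunit was the mixed one, with Atp6v0a2 at 51.6% ± 8.78 of the sum with Atp6v0a1 in old and 60.6% ± 6.65 in young mice. The shares of Atp6v1b2, Atp6v1g1 and Atp6v0a2 overlapped between the groups. Atp6v0d2 took a smaller part of the d subunit, and Atp6v1g3 (1 to 5 counts a library) of the G subunit, in each old library than in any young one. Tcirg1, a further a subunit outside the name rule, is not in the sum.

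Copies known from kidney, bone-resorbing cells and macrophages were near the detection limit. Atp6v0d2 had 6, 3 and 2 counts in the old and 14, 13 and 30 counts in the young libraries, or 0.253, 0.252 and 0.0916 CPM in old and 0.664, 0.510 and 0.917 CPM in young ones. The groups did not overlap (log2 value −1.81, −3.44 to −0.19, adjusted p = 0.242), and the macrophage markers above were lower in the same libraries, though their part in this value was not tested. Atp6v1b1 and Atp6v1g3 were the members that failed the filter. Atp6v1b1 had 1, 0 and 0 counts in old and 5, 32 and 0 counts in young libraries, with most reads in young replicate 2. A count of 0 allows up to 0.252 CPM in old replicate 2, 0.137 in old replicate 3 and 0.0917 in young replicate 3, for counting error only. Atp6v1g3 had 2, 1 and 2 counts in old and 3, 4 and 5 counts in young libraries.

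**Figure D4:**
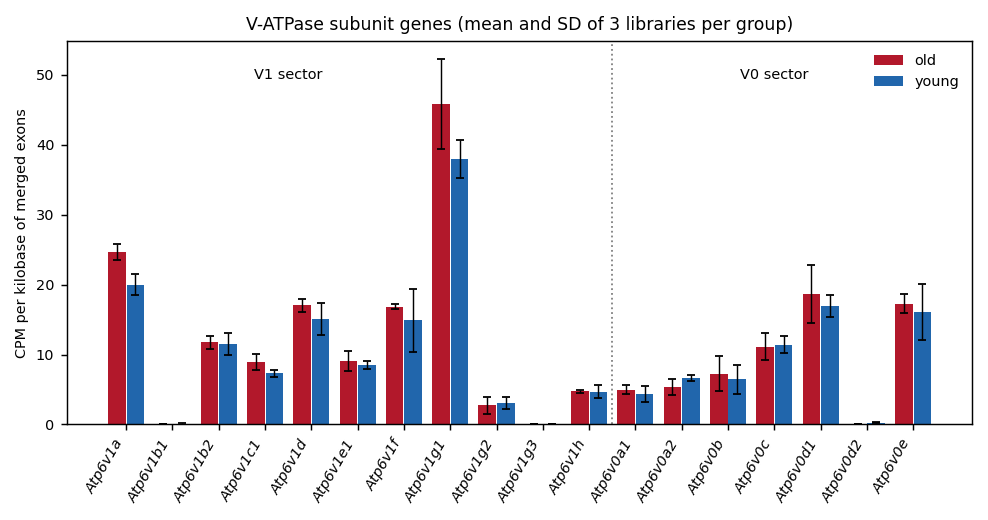
Level of 18 V-ATPase genes in CPM per kilobase of merged exons (vertical axis, from 0; bars are means and error bars the SD of 3 libraries) in old (red, left) and young (blue, right) mice, V1 sector before V0 sector. Atp6v1g1 is the tallest pair, and Atp6v1b1, Atp6v1g3 and Atp6v0d2 are close to 0 in both groups.

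Ranked by level per length over all 62 members, Lamp1 came first in both groups, at 107 ± 9.35 CPM per kilobase in old and 90.0 ± 6.94 in young mice. Ctsd followed at 63.5 ± 7.93 in old and 48.3 ± 8.65 in young mice, and Gabarapl1 had rank 3 at 62.7 ± 2.80 in old and 40.9 ± 1.94 in young mice. Ctsd and Gabarapl1 lay within their spread of each other in both groups. Lamp2 had rank 4 in old mice, at 47.2 ± 0.930 CPM per kilobase, and rank 6 in young mice, at 31.8 ± 6.35. All 62 members together took 3441 ± 184 CPM in old and 2877 ± 117 CPM in young mice (SD, n = 3 each). By role, the summed CPM did not overlap for the lysosomal membrane (734 to 798 in old, 481 to 641 in young), the cathepsins (574 to 691 in old, 427 to 526 in young), the V1 sector (486 to 512 in old, 422 to 469 in young), the Atg8 family above, and the receptor and transcription factors (64.0 to 79.3 in old, 56.0 to 61.3 in young). It overlapped for the V0 sector (195 to 244 in old, 198 to 243 in young), the initiation kinases (219 to 226 in old, 185 to 250.5 in young) and the Becn1 complex (67.3 to 85.0 in old, 66.8 to 86.9 in young). It overlapped also for the lipid transfer group (221 to 282 in old, 199 to 253 in young) and the conjugation genes (251 to 307 in old, 282 to 315 in young). These sums are set by their most abundant genes, and no share over other gene sets was computed for them. Taken singly, all 3 receptor and transcription factor genes overlapped between the groups.

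Partner genes outside the name rule were read from 9 lists of 124 genes, of which 121 were tested, 4 rose and none fell (3.31%, against 2.45% of all genes that rose). Vmp1, a scramblase of the endoplasmic reticulum needed to form autophagosomes, had 387, 318 and 338 CPM in old and 195, 159 and 147 CPM in young libraries (log2 fold change 1.06 ± 0.13 SE, edgeR adjusted p = 0.000934). Oxr1, of a protein family that binds the V-ATPase, had 258, 306 and 331 CPM in old and 162, 136 and 126 CPM in young libraries (log2 fold change 1.08 ± 0.13 SE, edgeR adjusted p = 0.000934). Both kept clear gaps between the groups and were called in all 13 alternative analyses. Cd63, a tetraspanin of late endosomes and lysosomes, rose by 0.84 ± 0.17 SE on the log2 scale (adjusted p = 0.0182). Cd63 was called in 8 of 13 alternatives and lost its call without any 1 of the 3 old libraries, young replicate 2 or young replicate 3 (adjusted p up to 0.0881).

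In 5 partner lists edgeR called no gene. Their genes of smallest p were Ambra1 (log2 value −0.25), a Becn1 partner, the cargo receptor gene Tax1bp1 (0.23), the membrane fusion gene Ykt6 (0.63), the cytotoxic cell cathepsin gene Ctsw (1.67) and Fnip2 (−0.54), a regulator of lysosomal mTORC1 signalling. Their adjusted p in edgeR ran from 0.0936 for Fnip2 to 0.532 for Ambra1. With DESeq2, Ctsw (adjusted p = 0.0163) and Fnip2 (adjusted p = 0.0182) were called, and Ctsw also without young replicate 3 (adjusted p = 0.0465). By list, edgeR's calls described here were 1 of 7 genes of phagophore growth, 1 of 12 V-ATPase partners and 1 of 17 lysosomal membrane and sorting genes. There were none among 7 initiation partners, 10 cargo receptors, 12 fusion genes, 6 tested cathepsins and inhibitors and 20 mTORC1 genes.

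The authors' deposited table, whose log2 values run young over old, called 3 members. Lamp2 (−0.61, adjusted p = 0.00112) and Ctsc (−0.51, adjusted p = 0.0420) were higher in old mice in the authors' deposited table, where 3.57% of all genes were. Ctss (1.12, adjusted p = 0.00475) was lower in old mice in the authors' deposited table, where 2.60% of all genes were. Gabarapl1 had a value of −0.48 there and an adjusted p of 0.0815 in the authors' deposited table. Atp6v0a2, lower in old mice in edgeR at −0.31, had −0.20 there, which is higher in old mice. It was called in neither. Atg7, Atg14, Atg16l1, Atp6v0c, Atp6v1h and Map1lc3a also differed in direction between edgeR and the authors' values. None of these genes was called in either.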

How the data were processed

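Whole-number estimated counts for 16312 genes in 6 libraries were deposited by the authors. Per the submitters' processing notes the tools were Salmon, DESeq2, FastQC and MultiQC on GRCm38, with no versions or roles. The authors' deposited comparison holds a base mean (a normalised signal), log2 fold changes, a test score, and p-values and adjusted p-values. Its log2 values had the opposite sign to old over young for 99.2% of 1355 genes over 2-fold in the counts, so they are read as young over old.

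Identifiers were matched to GENCODE M21 (GRCm38), which gave a symbol for 16301 genes. The estimated counts entered edgeR 4.0.16 in R 4.3.3 (default filter, minimum count 10 and total 15; TMM; quasi-likelihood F test) over 14288 genes, with Benjamini-Hochberg adjustment over all of them and a threshold of 0.05. SEs come from the fold change and its F statistic, and intervals are 95%. CPM use TMM-scaled totals, and a count of 0 is bounded by 3 counts. Alternatives used limma 3.58.1, DESeq2 1.42.0, other scalings and filters, and leaving out each library.

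The members, the lists and the motifs were chosen with earlier results of these data known, and the FoxO motif was added after results had been seen. The text names every called member, the 2 members of smallest p and the highest per length in each role, the called partner genes except 1 that is not reported here, and the partner of smallest p in lists without a call; other members named were chosen after their values were seen. Promoter sequences are from RefSeq (GRCm38.p6). The design calls the libraries biological replicates, and p-values measure the spread between these libraries.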

Additional observations from a re-analysis of the deposited data

How the results depend on the processing

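Counts of called members depended on the test and on single libraries. DESeq2 called 6 members higher and 1 lower in old mice, adding Map1lc3b, Ctsb and Ctsl on the higher side and Ctss on the lower, and 652 genes higher and 494 lower in the whole table. limma-voom with quality weights called 4 members higher (Ctsc, Ctsl, Gabarapl1 and Lamp2) and 1 lower (Ctss). In the whole table it called 388 genes higher and 287 lower. Leaving out 1 library gave 0 to 4 members higher and 0 lower, 166 to 308 genes higher and 79 to 167 genes lower in the whole table. Each such fit holds fewer libraries, and the cause of these differences was not tested. The median log2 fold change of the members stayed between 0.12 and 0.17 in those fits. With library size alone as the scaling it was 0.10, while that of all genes was −0.07, and the 3 calls were the same genes.

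Of 454 values of named genes under the 13 alternatives, 402 kept their direction and side of the threshold, 28 lost and 6 gained a call, and 18 changed sign, all in genes never called. These were Sqstm1 at 0.006 without a filter, 0.003 with DESeq2, 0.010 with limma-voom and 0.063 with quality weights, Atg14 at 0.053 with limma-voom and 0.059 with quality weights, and others in fits without 1 library. In those fits Sqstm1 ran from −0.12 to 0.11, Atg14 from −0.16 to 0.14, Atg13 from −0.014 to 0.58, Atp6v0d1 from −0.053 to 0.24, Becn1 from −0.006 to 0.30 and Ulk2 from −0.062 to 0.02. Without a library, Gabarapl1 ran from 0.59 to 0.66, Ctsc from 0.54 to 0.68 and Lamp2 from 0.44 to 0.73, with highest adjusted p of 0.0896, 0.161 and 0.153 over all alternatives. No paired analysis was possible because the labels link no old library to a young one. Depth limits the scarce members, such as Atp6v0d2, Atp6v1b1 and Atg9b.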
